A study of Mus musculus with 8 samples.

Results

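The genes described here are 10 components of the Notch pathway: the receptors Notch1, Notch2 and Notch3, the ligands Jag1 and Jag2, the DNA-binding protein gene Rbpj, and the target genes Hes1, Hey1, Hey2 and Heyl. They were chosen by name, matched by their mouse Entrez identifiers to the rows of the deposited expression table, and all 10 of 10 were found among the 24232 gene identifiers carried by the arrays. The study asked how the transcription factor FOXL2, a forkhead protein of granulosa cells, and estradiol (E2) shape the expression of genes in cultured follicular cells of the mouse. Preantral follicles were isolated from female Swiss mice aged 8 weeks, with ovaries of 5 mice pooled per replicate, and their cells, labelled as mostly granulosa cells, were cultured for 9 days, the last of them in hormone-free medium.

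All cells received 12 pmol of siRNA together with the pDsRed plasmid and Lipofectamine. The study's transfection protocol gives lysis after a further 24 h of growth, whereas its account of the E2 experiment places 24 h of siRNA before the E2. Each siRNA, control siRNA or FOXL2 siRNA, was combined with vehicle or with 100 nM E2 during the final 10 h, giving 4 groups with 2 arrays each from independent cultures of different animals, 8 arrays in all. Levels are given as the log2 scaled signal, that is the processed Cy3 intensity after every array was scaled to a common 75th percentile. One unit is a doubling, and levels of different genes are not compared because each probe has its own response. A gene was called changed at an adjusted p under 0.05 (limma, Benjamini-Hochberg adjustment over the 15637 genes tested), and all 10 members were tested. They were read by 13 probes, 1 each for 7 members and several for Notch1, Notch2 and Rbpj. Of the 10 members, 8 were well above background on all 8 arrays, and Jag2 and Hey2 on some of them.

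Notch receptors are single-pass proteins that are activated by ligands on a neighbouring cell. Ligand binding exposes the receptor to an ADAM protease and then to gamma-secretase, and the released intracellular domain joins RBPJ on DNA to switch on genes such as those of the HES and HEY repressors. In the ovary, the pathway is known for signalling between oocyte and granulosa cells during follicle formation, with JAG1 as a ligand and NOTCH2 as a granulosa receptor, and NOTCH3 is known from vascular smooth muscle.

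The arrays were similar in range, with 75th percentiles of 275 to 367 intensity units and 51.4% to 55.7% of probes well above background, and replicates correlated at 0.989 to 0.992 across genes. The labelled cell type was checked with 10 granulosa markers: 7 were well above background on all 8 arrays, 1 on some of them, and Fshr and Amh on none. Of 10 oocyte markers 7, of 10 endothelial markers 6 (Cdh5, Tek and Vwf among them) and of 10 macrophage markers 5 were well above background on no array. Well above background on all 8 arrays were Gdf9 of the oocyte markers and 3 endothelial markers, Pecam1, Kdr and Esam. So were 4 macrophage markers, Cd68, Csf1r, Cd14 and Fcer1g, 5 of the 7 theca markers on the array, and 4 of 10 pericyte and smooth muscle markers. Of the theca markers, Lhcgr was well above background on no array, and Insl3 was not on the array. Of the granulosa markers tested, 3 of 8 fell over both treatments, beside 6.18% of all genes, namely Fst, a binding protein of activin, by 2.02 log2 units (adjusted p = 0.000226), Hsd17b1, an enzyme of estradiol synthesis, by 1.48 (adjusted p = 0.00222) and Esr2, an estrogen receptor, by 0.46 (adjusted p = 0.0168). The others, Inha, Inhba, Nr5a1, Cyp19a1 and Foxl2, were not called. The summed signal of the granulosa list, mostly Inha and Inhba, did not separate the siRNAs. It was 82290 to 93180 on control arrays and 83450 to 89280 on arrays labelled FOXL2 siRNA. Of 5 theca markers tested, Hsd3b1 fell by 0.69 (adjusted p = 0.00746), Cyp11a1 rose by 0.89 (adjusted p = 0.000195), and Cyp17a1, Star and Ptch1 were not called, while the summed signal of the list, mostly Hsd3b1, was 124300 to 148100 on control arrays and 99150 to 120000 on arrays labelled FOXL2 siRNA. The summed signals of the macrophage markers were, in the same order, 593.5 to 664.4 and 654.5 to 796.9, and those of 10 interferon-response genes, all detected, 214100 to 303700 and 271600 to 337100. Their part in the siRNA differences below was not tested. In a bulk culture, fewer cells of a type and less RNA per cell cannot be told apart. The targeted gene went against the labels in part: Foxl2 was 0.18 log2 units higher (SE 0.104, adjusted p = 0.334) on the arrays labelled FOXL2 siRNA over both treatments, and its brighter probe differed by 0.18 (adjusted p = 0.364 over 31486 probes). Its dimmer probe fell by 0.97 (SE 0.19, adjusted p = 0.0199). Every direction given below for FOXL2 siRNA rests on the arrays' labels.

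Among the receptors, Notch2 was the steadiest between arrays. Its levels were 10.77 and 10.65 with control siRNA and vehicle, 10.47 and 10.50 with E2 and control siRNA, 10.47 and 10.42 on the arrays labelled FOXL2 siRNA with vehicle, and 10.38 and 10.42 on those labelled FOXL2 siRNA with E2. The control siRNA arrays with vehicle lay above the other 6 arrays. Notch2 stood at -0.26 log2 units (SE 0.0873, adjusted p = 0.138) for FOXL2 siRNA with vehicle, at -0.08 (adjusted p = 0.733) with E2, and at -0.23 (unadjusted p = 0.0321 and adjusted p = 0.9999 by limma) for E2 with control siRNA. None of these passed the test. Its brighter probe gave -0.25 and its dimmer probe -0.79 for FOXL2 siRNA with vehicle, and neither was called (adjusted p = 0.219 and 0.195).

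Notch1 and Notch3 differed more between the arrays of a group than between groups. Notch1 had levels of 6.21 and 5.22 with control siRNA and vehicle, 5.84 and 5.30 with E2 and control siRNA, 6.13 and 5.63 with FOXL2 siRNA and vehicle, and 6.38 and 5.36 with FOXL2 siRNA and E2. All groups overlapped, and the difference over both treatments was 0.23 log2 units, with a 95% interval from -0.49 to 0.96 (limma). Its signal came from 1 of 2 probes, since the other was well above background on 0 of 8 arrays. Notch3 had levels of 8.41 and 9.11, 8.11 and 8.91, 8.22 and 8.87, and 8.16 and 8.71 in the same order of groups. All groups overlapped again, at -0.15 log2 units over both treatments with a 95% interval from -0.74 to 0.45.

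The array numbered 2 was higher than the array numbered 1 in all 4 groups for Notch3, by 0.56 to 0.81 log2 units, and lower in all 4 groups for Notch1, by 0.50 to 1.02. Jag1 was also higher on the array numbered 2 in all 4 groups, by 0.55 to 1.42, and so was Hey2, by 0.11 to 2.11. Rbpj and Hey1 were lower on it in all 4 groups, at -0.43 to -0.10 and -0.59 to -0.06. The share of all genes placed on 1 side in this way was not computed, so the placement is not shown to be particular to the members. Over all 15637 genes tested, the deviations from the group means correlated between groups at 0.327 to 0.445. Of 10 pericyte and smooth muscle markers, Acta2, Tagln and Cnn1 were higher on the array numbered 2 in all 4 groups, Acta2 by 1.40 to 1.65, Pdgfrb in 3 groups, and Cspg4 and Des in 1 each, while Rgs5, Myh11, Kcnj8 and Abcc9 were well above background on no array. The summed signal of the 10 markers was 13490 to 16090 on the arrays numbered 1 and 31920 to 34330 on those numbered 2, and did not separate the siRNAs. Its part in the levels of Notch1, Notch3, Jag1, Hey2, Rbpj and Hey1 was not tested.

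**Figure D1:**
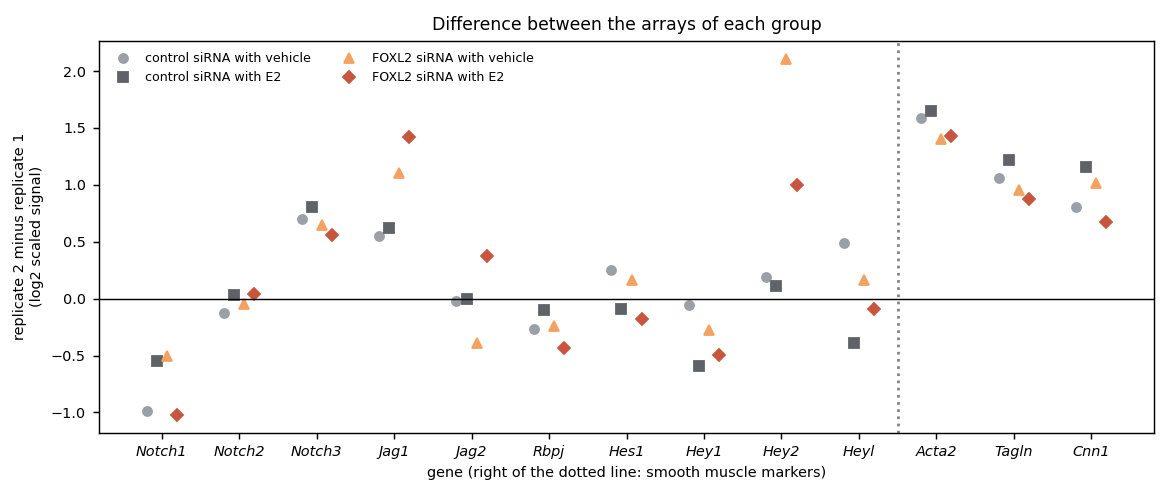
The vertical axis is the level on the array numbered 2 minus that on the array numbered 1 of the same group, in log2 units, for the 10 Notch genes and 3 smooth muscle markers, with 1 point per group. Notch3, Jag1 and Hey2 lie above 0 and Notch1, Rbpj and Hey1 below 0 in all 4 groups, and Acta2, Tagln and Cnn1 lie above 0 in all 4. The share of all genes so placed was not computed.

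Jag1, which encodes a ligand of Notch receptors, had the largest difference for FOXL2 siRNA among the members with a signal on every array, without passing the test. Its levels were 7.59 and 8.14 with control siRNA and vehicle, 7.86 and 8.48 with E2 and control siRNA, 8.65 and 9.75 on the arrays labelled FOXL2 siRNA with vehicle, and 8.26 and 9.68 on those labelled FOXL2 siRNA with E2. With vehicle the siRNA groups did not overlap, whereas with E2 the lower FOXL2 siRNA array lay under the higher control array. The difference was 1.34 log2 units (SE 0.514, adjusted p = 0.1995) with vehicle, 0.80 (SE 0.514, adjusted p = 0.508) with E2, and 1.07 (SE 0.363, adjusted p = 0.102), or 2.10-fold, over both treatments. Without FOXL2 siRNA with E2 replicate 1 it was 1.43 over both treatments and passed (adjusted p = 0.0285), and it passed with vehicle, with E2 and over both when the replicate number was a block (adjusted p = 0.000212, 0.00851 and 4.86e-05). The labels do not state what arrays of 1 number share. The summed signal of the endothelial markers, cells in which Jag1 is also known, was 1170 to 1862 with control siRNA and 1642 to 2013 with FOXL2 siRNA, mostly that of Kdr, which stood at 0.36 log2 units (adjusted p = 0.141) over both treatments. Its part in the Jag1 values was not tested.

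Jag2, the other Jagged ligand, was near the limit of detection. It was well above background on 1 of 8 arrays, replicate 2 of control siRNA with vehicle. Its measured levels were 3.83 and 3.81 with control siRNA and vehicle, 3.02 and 3.02 with E2 and control siRNA, 3.55 and 3.15 with FOXL2 siRNA and vehicle, and 3.18 and 3.56 with FOXL2 siRNA and E2. Against control siRNA with vehicle, measured on 1 of its 2 arrays, the measured values of Jag2 differed by -0.47 log2 units with FOXL2 siRNA and vehicle (adjusted p = 0.557) and by -0.80 with control siRNA and E2 (adjusted p = 0.9999), and with normexp background correction by -0.00275 and -0.27. None of these was called.

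Rbpj, which encodes the DNA-binding partner of the cleaved receptors, had its 4 arrays labelled FOXL2 siRNA below its 4 control arrays. Its levels were 9.13 and 8.86 with control siRNA and vehicle, 9.04 and 8.94 with E2 and control siRNA, 8.73 and 8.49 with FOXL2 siRNA and vehicle, and 8.86 and 8.43 with FOXL2 siRNA and E2. The nearest arrays, at 8.865 and 8.860, almost met. Rbpj was the 1 member of 10 whose arrays did not overlap and were lower over both treatments, where 10.7% of all genes tested were so placed, and 0 members were higher without overlap, against 10.1% of all genes. The difference was -0.37 log2 units (SE 0.122, adjusted p = 0.0956) and did not pass. It passed without FOXL2 siRNA with E2 replicate 1 (-0.475, adjusted p = 0.0437) and with the replicate number as a block (adjusted p = 0.00286). The brighter of its 2 probes gave -0.42 (adjusted p = 0.083) and the dimmer -0.07 (adjusted p = 0.899).

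**Figure D2:**
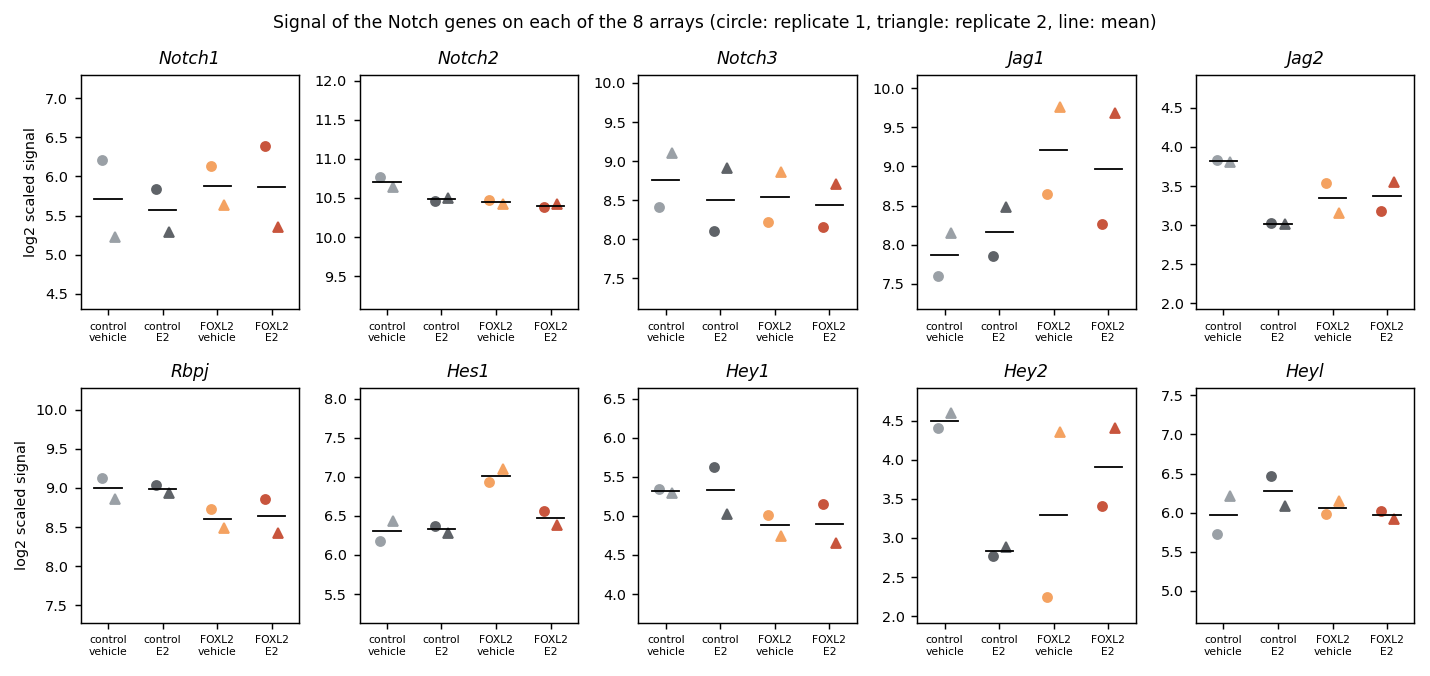
Each panel shows 1 gene, with its log2 scaled signal on the vertical axis, spanning 3 log2 units in every panel, and the 4 groups on the horizontal axis. Circles are replicate 1, triangles replicate 2 and lines the mean of both. Hes1 is highest on both arrays labelled FOXL2 siRNA with vehicle, Jag1 is highest on replicate 2 of both FOXL2 siRNA groups, and Hey2 lies lowest in control siRNA with E2 and on replicate 1 of FOXL2 siRNA with vehicle.

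Hes1, a repressor that is a direct target of Notch in many tissues, was the only member called in any comparison of the main fit. That fit had no term for the replicate number, although deviations from the group means correlated between groups at 0.327 to 0.445. With the replicate number as a block, Jag1 and Rbpj were called as well for FOXL2 siRNA, with vehicle, with E2 and over both treatments. Of the 15637 genes tested, 2928, 2329 and 4326 were called then, in place of 1026, 686 and 1967. Hes1 rose to 6.93 and 7.09 on the arrays labelled FOXL2 siRNA with vehicle, from 6.18 and 6.43 with control siRNA and vehicle. It stood at 6.37 and 6.29 with E2 and control siRNA, and at 6.56 and 6.38 with FOXL2 siRNA and E2. Both arrays of FOXL2 siRNA with vehicle lay above the other 6, which stood between 6.18 and 6.56. The rise with vehicle was also called in 4 of the 8 other settings that kept all arrays. These were quantile normalization, only genes well above background on all arrays of a group, no intensity trend, and the replicate block. In the main fit the rise was 0.71 log2 units (SE 0.168), or 1.63-fold, with an adjusted p of 0.04999. This lay at the threshold: the call was lost with normexp background correction (0.43, adjusted p = 0.0565), without the filter on dim genes (adjusted p = 0.121), with the brightest probe (0.0641), with the authors' table (0.0537), and on leaving out any 1 of the 8 arrays (adjusted p from 0.0727 to 0.242).

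Thus, in the main fit, 1 of 10 members was called for FOXL2 siRNA with vehicle, beside 6.56% of all genes tested, 3.63% higher and 2.94% lower. With E2, 0 of 10 were called by limma, beside 4.39% of all genes (2.25% higher, 2.14% lower), and 0 of 10 had an unadjusted p under 0.05, beside 2589 of the 15637 genes. Over both treatments, 0 of 10 were called by limma, beside 12.6% of all genes, and 4 had an unadjusted p under 0.05, namely Notch2, Jag1, Rbpj and Hes1, beside 4195 of the 15637 genes. Over both treatments Hes1 stood at 0.42 (SE 0.119, adjusted p = 0.058). Counting instead the members whose 2 arrays of each siRNA did not overlap with vehicle, 2 were higher (Jag1 and Hes1), beside 22.5% of all genes, and 5 were lower (Notch2, Jag2, Rbpj, Hey1 and Hey2), beside 23.5%. With E2, 3 were higher (Jag2, Hes1 and Hey2), beside 23.3%, and 3 were lower (Notch2, Rbpj and Heyl), beside 24.7%.

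For E2, Hes1 also had the lowest unadjusted p among the members. In FOXL2 siRNA cells its level was lower with E2 than with vehicle on both arrays, at -0.54 log2 units (SE 0.168, unadjusted p = 0.0128, adjusted p = 1 by limma). In control siRNA cells it differed by 0.03 (SE 0.168). The difference between the E2 effects was -0.57 (95% interval from -1.12 to -0.02, unadjusted p = 0.0453, adjusted p = 0.9899 by limma) and was not called.

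Hey1 and Heyl, which encode HEY repressors, were well above background on all arrays and were not called. Hey1 had levels of 5.34 and 5.29 with control siRNA and vehicle, 5.62 and 5.03 with E2 and control siRNA, 5.02 and 4.74 with FOXL2 siRNA and vehicle, and 5.15 and 4.65 with FOXL2 siRNA and E2. With vehicle both FOXL2 siRNA arrays lay below both control arrays, whereas with E2 the siRNA groups overlapped, and over both treatments the difference was -0.43 log2 units (SE 0.206, adjusted p = 0.234). With normexp background correction Hey1 stood at 0.05 in place of -0.44 with vehicle. Heyl had levels of 5.72 and 6.21, 6.47 and 6.08, 5.98 and 6.15, and 6.02 and 5.92 in the same order, and the difference was -0.10 (95% interval from -0.48 to 0.27, limma).

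Hey2, a HEY repressor known from heart and vessels, was detected unevenly. It was well above background on both arrays of control siRNA with vehicle, on none with control siRNA and E2, and on replicate 2 alone of each FOXL2 siRNA group. Its measured levels were 4.41 and 4.60 with control siRNA and vehicle, 2.77 and 2.89 with E2 and control siRNA, 2.24 and 4.36 with FOXL2 siRNA and vehicle, and 3.40 and 4.40 with FOXL2 siRNA and E2. In control siRNA cells the measured values of Hey2 were 3.18-fold lower with E2 than with vehicle, which was not called. The 95% interval ran from -3.24 to -0.10 log2 units (unadjusted p = 0.0396, adjusted p = 0.9999 by limma). Neither array with E2 was well above background there, so this fold rests on their measured signal and is not a lower limit. The fold depends on the background correction: with normexp the difference was -0.40 log2 units. Hey2 was the 1 member of 10 past the study's own rule for E2 there, which 0.454% of all genes passed. That rule asks for a difference of at least 1 log2 unit that exceeds 2 times the sum of both SDs. No member passed this rule for E2 in FOXL2 siRNA cells (0.217% of all genes). Applied here to FOXL2 siRNA, it was passed by no member with vehicle (2.94% of all genes) or with E2 (2.35%). The study did not use it for FOXL2 siRNA. It took its FOXL2 targets from a paired test in a separate array experiment, and lists Hey2 among them as activated by FOXL2. It also shows Hey2 among activated genes with sites bound by FOXL2 in their introns. It proposes such sites as potential regulatory elements. With vehicle, FOXL2 siRNA and control siRNA cells differed by -1.20 on the measured values (SE 0.675, adjusted p = 0.397), and replicate 1 of FOXL2 siRNA carried the lower value. With E2, where 1 of the 2 FOXL2 siRNA arrays and neither control array was well above background, the measured values differed by 1.07 (SE 0.675, adjusted p = 0.502), and by 0.15 with normexp. The difference between the E2 effects, 2.27 on the measured values (SE 0.954, adjusted p = 0.9899), was not called.

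The 250 bases before and 50 after the annotated start of Hey2 (RefSeq, GRCm38.p6, chr10:30842734-30843033, minus strand) are shown because Hey2 is a known RBPJ target. Capitals mark the RBPJ core word TGGGAA on either strand, read as TTCCCA where it lies on the opposite strand.
Hey2: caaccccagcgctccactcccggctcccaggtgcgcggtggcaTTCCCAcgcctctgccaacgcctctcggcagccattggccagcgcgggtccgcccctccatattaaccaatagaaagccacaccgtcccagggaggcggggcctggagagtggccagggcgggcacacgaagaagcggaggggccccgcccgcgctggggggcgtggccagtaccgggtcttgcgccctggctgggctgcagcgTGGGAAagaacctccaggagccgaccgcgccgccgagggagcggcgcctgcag
The core word occurred 2 times, and both copies carried the longer word GTGGGAA, which contains the core. Of 32851 mouse promoters of this length, 25.6% held the core word on either strand and 3.79% held it 2 or more times, while 6.38% held GTGGGAA and 0.256% held it 2 or more times. Promoters were matched for 7 of the 10 members, the others being Hes1, Hey1 and Heyl. The 2 listed Rbpj promoters overlap and held 2 sites of the core word in all, 1 of them shared by both, and it was found 0 times in those of Notch1, Notch2, Notch3, Jag1 and Jag2. A match is a description of letters and not of binding.

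**Figure D3:**
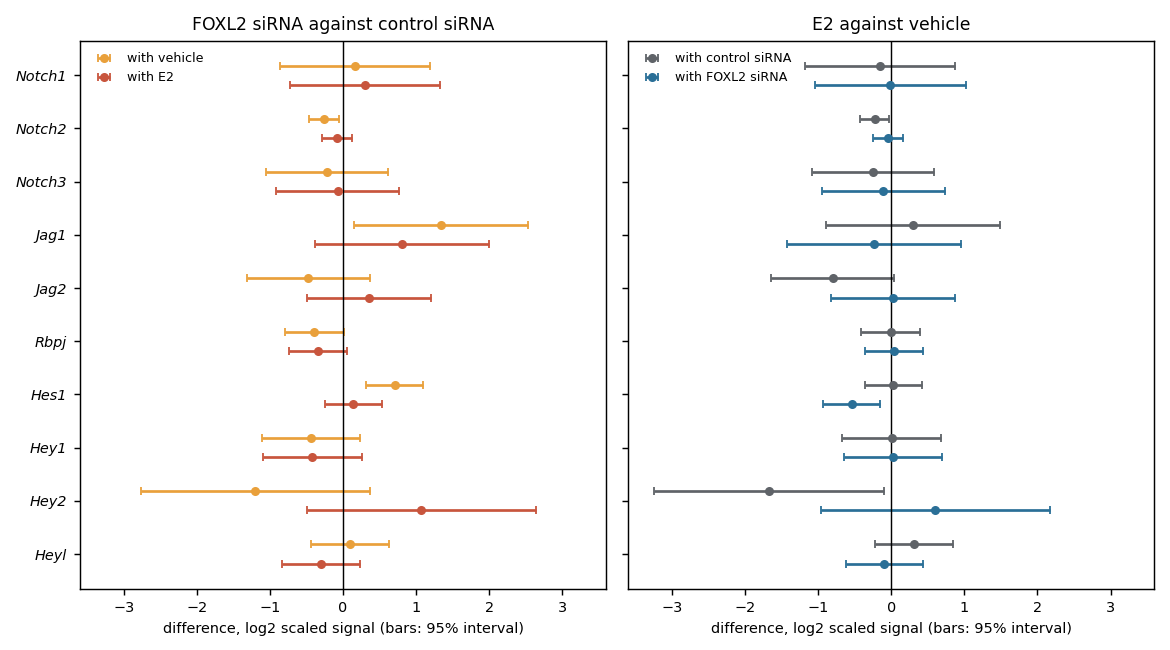
Differences in log2 units with 95% intervals from limma for the 10 members, on the left FOXL2 siRNA against control siRNA with vehicle and with E2, and on the right E2 against vehicle with each siRNA. For FOXL2 siRNA with vehicle the intervals of Hes1, Jag1 and Notch2 leave out 0, Hes1 alone being called after adjustment, and the Hey2 points are measured values that include signals not well above background.

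In the E2 comparisons, 0 of 10 members were called by limma with control siRNA, beside 0.0192% of all genes, with FOXL2 siRNA, beside 0.0128%, and in the difference between the E2 effects, beside 0.243% (0.237% higher, 0.0064% lower). At an unadjusted p under 0.05 there were 2 members with control siRNA (Notch2 and Hey2), 1 with FOXL2 siRNA (Hes1) and 2 in the difference (Hes1 and Hey2), beside 716, 478 and 767 of the 15637 genes. Without overlap between arrays, 3 members were lower with E2 in control siRNA cells (Notch2, Jag2 and Hey2), beside 15.8% of all genes, and 2 in FOXL2 siRNA cells (Notch2 and Hes1), beside 17.2%. None was higher without overlap in either, beside 11.3% and 10.3% of all genes. Rbpj differed by -0.01 and 0.04 and Hey1 by 0.01 and 0.02 with E2 in the 2 siRNA backgrounds, with SEs of 0.173 and 0.291.

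Of 62 other genes of the pathway, listed by role, 61 were on the array, 48 were well above background on all 8 arrays and 52 were tested. For FOXL2 siRNA, 3 rose and 0 fell with vehicle, 1 rose and 0 fell with E2, and 4 rose and 1 fell over both treatments, where 6.4% of all genes rose and 6.18% fell. The median difference of the 52 genes over both treatments was 0.03 log2 units, beside -0.00261 over all genes. For E2 with control siRNA, E2 with FOXL2 siRNA and their difference, 0 of the 52 were called by limma, and 2, 2 and 3 had an unadjusted p under 0.05.

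Lfng, which encodes the lunatic fringe enzyme that lengthens sugars on Notch receptors and alters their response to ligands, carried the clearest difference of the pathway. Its levels were 5.99 and 6.41 with control siRNA and vehicle, 6.82 and 6.70 with E2 and control siRNA, 7.80 and 7.86 on the arrays labelled FOXL2 siRNA with vehicle, and 7.47 and 7.68 on those labelled FOXL2 siRNA with E2. All 4 arrays labelled FOXL2 siRNA lay above all 4 control arrays. Lfng rose by 1.62 log2 units (SE 0.176, adjusted p = 0.00291), or 3.08-fold, with vehicle, by 0.82 (SE 0.176, adjusted p = 0.0442) with E2, and by 1.22 (SE 0.124, adjusted p = 0.00107), or 2.33-fold, over both treatments. The call with vehicle and over both treatments was kept in all 8 fits that left out 1 array, while the call with E2 was lost without either array of control siRNA with E2 or any 1 of the 4 arrays labelled FOXL2 siRNA (adjusted p up to 0.259). The call with E2 was lost as well with quantile normalization (adjusted p = 0.0684), without the filter (0.101), with the brightest probe (0.0526) and without the intensity trend (0.0678). With normexp background correction the rises were 0.97 with vehicle and 0.78 over both treatments. The E2 effects differed by -0.81 between the siRNAs (SE 0.249, unadjusted p = 0.0125, adjusted p = 0.669 by limma), which was not called. The study names Lfng among the FOXL2 targets of its separate array experiment, in a list that gives no direction.

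The promoter of Lfng (RefSeq, GRCm38.p6, chr5:140607091-140607390, plus strand), a known target of Notch as well as its modifier, is shown in the same way, with the RBPJ core word in capitals.
Lfng: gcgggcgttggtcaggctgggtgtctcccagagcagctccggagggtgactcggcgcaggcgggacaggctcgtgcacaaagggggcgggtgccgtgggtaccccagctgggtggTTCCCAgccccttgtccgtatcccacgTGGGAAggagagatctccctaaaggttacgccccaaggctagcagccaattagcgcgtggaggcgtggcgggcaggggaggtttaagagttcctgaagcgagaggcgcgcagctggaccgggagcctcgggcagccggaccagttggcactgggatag
The core word occurred 2 times, 1 of them within GTGGGAA, against the shares of all promoters given for Hey2.

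The remaining enzymes that add sugars to Notch, Mfng, Rfng, Pofut1, Poglut1 and Eogt, were not called. Among the proteases that cut the receptor, Adam10, the main ADAM protease of Notch, rose by 0.67 log2 units (SE 0.133, adjusted p = 0.025) with vehicle and by 0.53 (SE 0.094, adjusted p = 0.00978) over both treatments. Its levels were 11.81 and 11.48, 11.85 and 11.65, 12.42 and 12.22, and 12.13 and 12.14 in the order of groups used above, and all 4 arrays labelled FOXL2 siRNA lay above all 4 control arrays. The call over both treatments was kept in all 8 fits that left out 1 array. With vehicle it was lost without control siRNA with vehicle replicate 2 (adjusted p = 0.122), FOXL2 siRNA with vehicle replicate 1 (0.133) or FOXL2 siRNA with vehicle replicate 2 (0.0758), and without the intensity trend (0.0673). Psen2, a catalytic subunit of gamma-secretase, fell by 0.44 (SE 0.103, adjusted p = 0.0317) over both treatments, from 11.77 to 11.98 with control siRNA to 11.26 to 11.62 with FOXL2 siRNA. That call was lost, with adjusted p up to 0.107, without replicate 1 of control siRNA with vehicle, replicate 2 of either FOXL2 siRNA group, or either array of control siRNA with E2, and also without the filter (0.0546) or the intensity trend (0.0729).

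Neurl1a, a ubiquitin ligase of Notch ligands, rose by 0.92 log2 units (SE 0.216, adjusted p = 0.0472) with vehicle, a call lost, with adjusted p up to 0.225, on leaving out any 1 array except control siRNA with vehicle replicate 1, and stood at 0.14 (adjusted p = 0.822) with E2. The call was lost as well with normexp (adjusted p = 0.0554), without the filter (0.0869), with the authors' table (0.0502) and without the intensity trend (0.104). Of 7 tested genes listed as other HES family members or known targets, Ccnd1, which encodes cyclin D1, rose by 1.58 (SE 0.328, adjusted p = 0.0186) and Gata3, a transcription factor, by 0.97 (SE 0.202, adjusted p = 0.0189) over both treatments. Ccnd1 lay at 6.20 to 7.06 on the control arrays and 7.34 to 8.80 on the arrays labelled FOXL2 siRNA, without overlap, and Gata3 at 10.26 to 10.88 and 11.02 to 11.86. Both calls were lost when FOXL2 siRNA with vehicle replicate 2 was left out, or control siRNA with E2 replicate 1, and so was that of Ccnd1 without control siRNA with vehicle replicate 2 and that of Gata3 without replicate 1 of that group, with adjusted p up to 0.0685 and 0.0691. Gata3 also lost its call without the intensity trend (adjusted p = 0.0510). None of the 13 coactivators and corepressors of RBPJ or of the 11 tested genes of receptor turnover and inhibition was called by limma in the 6 comparisons, where 1 and 9 of their values had an unadjusted p under 0.05.

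**Figure D4:**
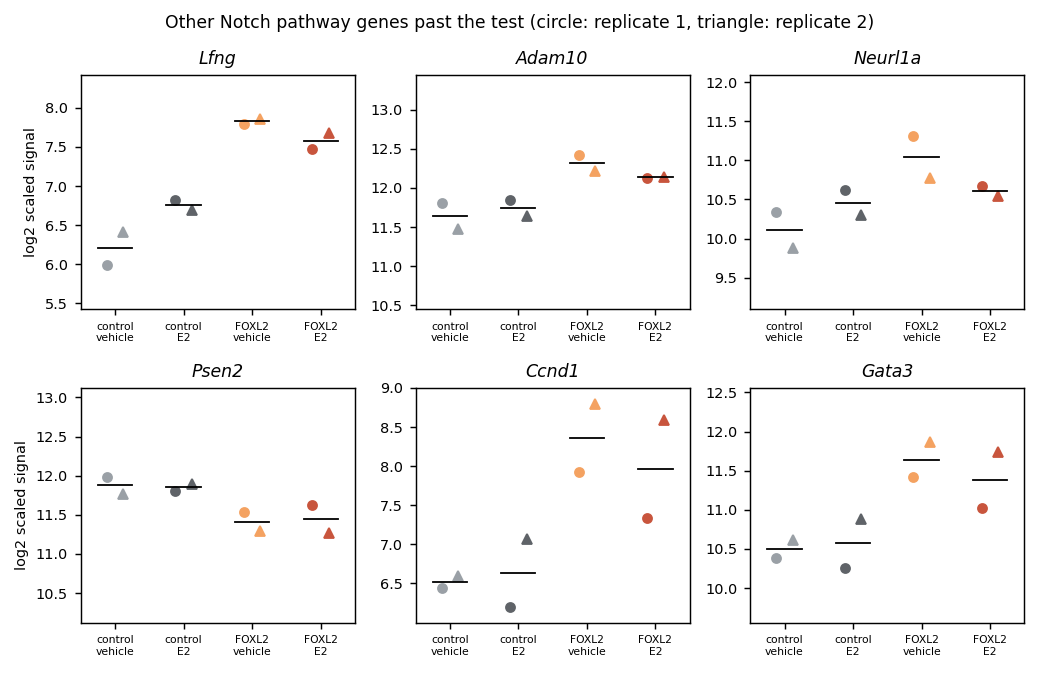
Log2 scaled signal on the vertical axis of the 6 other pathway genes called for FOXL2 siRNA, by group, with circles for replicate 1, triangles for replicate 2 and lines for the mean. For Lfng, Adam10, Ccnd1 and Gata3 all 4 arrays labelled FOXL2 siRNA lie above all 4 control arrays, for Psen2 below them, and for Neurl1a the groups overlap over both treatments.

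Among the other receptors and ligands, Notch4 was well above background on all 8 arrays, at 4.65 to 5.29, and differed by 0.10 log2 units (SE 0.226) over both treatments. Among the Delta-like ligands, Dll4 was well above background on 0 of 8 arrays, Dll1 on 2 and Dll3 on 7, and the noncanonical ligand Dlk1 was on 2. Dlk2, a relative of Dlk1, was well above background on all 8 arrays, at 7.01 to 7.81, and was not called. Hes3, Hes5, Helt and Nrarp, further targets or family members, were well above background on no array.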

How the data were processed

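The submitters hybridised Cy3-labelled RNA to 8 Agilent 1-colour arrays on 1 slide with 1 scan, and Agilent Feature Extraction 11.5.1.1 gave the deposited intensity values, per the file headers, with detection flags. The design build was mm9. The authors' deposited log2 table equals the processed signal less 1 constant per array (within 0.001 for 98.7% to 98.9% of named rows) that lay near, but not at, the 75th percentile computed here. The study's methods name GeneSpring with normalization by the 75th centile of each array. No probe was saturated.

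Here control spots (3671 of 62976) and 42 probes with a non-uniformity flag were dropped. The processed intensity was scaled to each array's 75th percentile (common value 319.947), probes of 1 Entrez identifier were averaged, and log2 was taken. The 15637 genes whose median scaled signal reached 10 entered limma 3.58.1 in R 4.3.3 (4 group means, 4 residual degrees of freedom, intensity trend), with Benjamini-Hochberg adjustment and a threshold of 0.05. Probes were tested alike. The 95% intervals are those of limma. Tested on simulated data for FOXL2 siRNA over both treatments (15637 genes), the fit called 185 of 200 genes changed by 2 log2 units, with 5 false calls. Smaller changes were not simulated, and the differences of all members over both treatments were smaller.

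The rule for named genes took the 10 members, other listed pathway genes where called, and Foxl2. Notch4, the Delta-like and noncanonical ligands, further HES genes, Nrarp, the remaining sugar-adding enzymes and single markers were named after their values were seen. The members and lists were chosen with earlier results of these data known. Alternatives were normexp (median signal and median background, offset 50, since the files hold no mean signal column), quantile normalization, no filter on dim genes, only genes well above background on all arrays of a group, the brightest probe, the authors' table, no trend, the replicate number as a block, and leaving out each array. The number of arrays limits the precision.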

Additional observations from a re-analysis of the deposited data

How the results depend on the processing

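Of 426 values of single genes under settings other than leaving out an array, 396 kept their direction and their side of the threshold, 6 reversed, 16 fell short of it and 8 newly passed. The count of members called for FOXL2 siRNA with vehicle was 1, and it was 0 with normexp background correction, without the filter on dim genes, with the brightest probe and with the authors' table, and 0 on leaving out any 1 array. Over both treatments it was 0, and 1 without the intensity trend (Hes1, adjusted p = 0.0437) and 0 to 2 on leaving out 1 array, the 2 being Jag1 and Rbpj. In the other comparisons it stayed at 0 in these settings. The cause was not tested.

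Replicate numbers of the labels were shared by the groups, and deviations from the group means correlated between groups at 0.327 to 0.445, but the labels do not state what a number shares. With the replicate number as a block, members called were 3 with vehicle, 2 with E2 and 3 over both treatments, Jag1 and Rbpj in all of these (Jag1 over both treatments adjusted p = 4.86e-05, Rbpj 0.00286) with Hes1 beside them with vehicle and over both treatments, and genes called among all rose from 1026 to 2928, from 686 to 2329 and from 1967 to 4326. With E2 in control and FOXL2 siRNA cells and for their difference, all-gene counts went from 3 to 182, from 2 to 96 and from 38 to 332 under the block. Leaving out 1 array gave 309 to 918, 130 to 629 and 1181 to 1879 genes for FOXL2 siRNA, and 0 to 5, 0 to 4 and 4 to 10 for E2 and the difference. Without the intensity trend, 633, 379, 1, 1 and 15 genes were called with vehicle, with E2, for E2 in each siRNA background and for the difference. Without the filter these E2 counts were 1, 0 and 9, with normexp 7 in control siRNA cells, and with the brightest probe 1 in FOXL2 siRNA cells.

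With normexp, Hey1 with vehicle gave 0.0499, Jag2 0.0824 and Hey2 0.0215 over both treatments, Hes1 -0.0129 for E2 in control cells, and Hey2 -0.15 and Jag2 -0.10 for E2 in FOXL2 siRNA cells, all reversed and not called. Leaving out 1 array turned the sign of uncalled differences: Notch1 ranged from -0.33 to 0.66 with vehicle, -0.21 to 0.82 with E2 and -0.0213 to 0.49 over both, Notch3 from -0.57 to 0.13, -0.48 to 0.33 and -0.35 to 0.0565, and Heyl from -0.15 to 0.34 with vehicle and -0.23 to 0.0199 over both. Foxl2 ranged from -0.0575 to 0.39 with vehicle, Jag2 from -0.16 to 0.0353 and Hey2 from -0.59 to 0.46 over both treatments. For E2, Hes1 ranged from -0.10 to 0.15 in control cells, and Hey2 from -0.46 to 1.66 and Jag2 from -0.18 to 0.21 in FOXL2 siRNA cells. Jag2 and Hey2 lie near background, which limits every value of theirs.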
